A study of Mus musculus with 9 samples.

Results

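The levels of 44 genes of the lysosome and of the transcription factors that control it were followed in mouse livers with and without Atg7. They comprise 9 genes of the lysosomal membrane and its acidification, 12 of proteases, 13 of glycosidases and sulfatases, 7 of lipid hydrolases and of proteins that bind lipids or activate their breakdown, and 3 of MiT/TFE factors. The genes were listed by symbol for their role, with earlier results of these data known, and all 44 were found among the 24411 genes of the count table. Each of them was among the 11199 genes with enough reads to be tested. Lysosomes break down what autophagy and endocytosis deliver to them. Their lumen is kept acidic by a proton pump, the V-ATPase, and holds proteases, glycosidases, sulfatases and lipid hydrolases, many of which are carried there by mannose 6-phosphate receptors. Transcription of lysosomal genes is driven by TFEB, TFE3 and MITF, which belong to the MiT/TFE family. These factors bind E-box elements and are held in the cytoplasm when the kinase complex mTORC1 phosphorylates them. In hepatocytes the lysosome is where autophagosomes end, and ATG7 is an enzyme needed to form autophagosomes.

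Poly(A) RNA was sequenced from whole livers of 9 mice, 3 in each of 3 groups. The mice were 3 months old and on a C57BL/6 background. All carried Atg7 alleles flanked by loxP sites (Atg7 flox/flox), and those called cont. had no Cre recombinase. Atg7-KO livers also carried Alb-Cre, in which the albumin promoter drives Cre so that Atg7 is deleted in hepatocytes and remains in the other cells of the liver. The group named S351A here had the floxed Atg7 alleles and Alb-Cre together with p62 S351A on both copies, a change of 1 serine of the adaptor protein p62 to alanine that weakens its binding to KEAP1. For S351A replicates 2 and 3 the genotype entry of the labels names other positions in p62 than the titles do, and the titles were followed. In whole liver, fewer cells of a type and less RNA per cell cannot be told apart.

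Library totals were 1875325 to 15426575 counts in cont., 1945483 to 3675058 in Atg7-KO and 713841 to 792372 in S351A. Each S351A library was shallower than all others, so depth and the p62 mutation cannot be told apart, and 3 counts, taken as the floor, equalled 0.267 CPM (a gene's count as a part of its library's TMM-scaled total) in the deepest library and 3.70 CPM in the shallowest. Males and females, as read from the levels of Xist and Y-linked genes, were 2 and 1 in cont. and 1 and 2 in each of the other groups. Atg7 itself was lower than in cont. by a log2 fold change of -0.74 in Atg7-KO (SE 0.19) and -1.07 in S351A (SE 0.21). In the quasi-likelihood test of edgeR, with p-values adjusted by Benjamini-Hochberg, the adjusted p was 0.00757 and 0.00318, respectively. Cont. replicate 1 stood apart in the summed level of 9 hepatocyte markers, with 48223 CPM against 105730 and 101080 CPM in cont. replicates 2 and 3. Without this library the same 14 genes were called higher and the same 3 lower in Atg7-KO, and 11 of the 12 calls in S351A were kept. All 9 hepatocyte markers were detected in every library.

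MiT/TFE factors bind the E-box CACGTG, most often within the longer TCACGTGA. Promoter windows of 300 bases, from 250 before to 50 after each start annotated by RefSeq on GRCm38.p6, were at hand for 38 of the 44 genes. Both motifs are palindromes, so a match on one strand is a match on the other, and every TCACGTGA also counts as an E-box. CACGTG stood in the windows of 14 of the 38 genes (36.8%), against 1022 of the 8575 tested genes that have a window (11.9%) and 8.09% of all genes. TCACGTGA stood in 5 of the 38 (13.2%), against 194 of the 8575 (2.26%) and 1.12% of all genes. The still longer element with a G before and a C after TCACGTGA was in none of the 38 and in 0.851% of the tested genes. The following windows, in the direction of transcription, give 30 bases around the motif, which is in capitals. Positions count from the annotated start to the first base of CACGTG. The first lines are of genes that were higher or lower in Atg7-KO, and the last lines are of genes that hold the same motifs and did not pass the test.
Ctsd, position -98, chr7:142387908-142387937, - strand: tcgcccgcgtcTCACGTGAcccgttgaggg
Gla, position -227, chrX:134601215-134601244, - strand: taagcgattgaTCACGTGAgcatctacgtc
Gla, position -194, chrX:134601182-134601211, - strand: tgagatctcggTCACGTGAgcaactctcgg
Lgmn, position -49, chr12:102439124-102439153, - strand: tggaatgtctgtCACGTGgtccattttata
Arsa, position -16, chr15:89477423-89477452, - strand: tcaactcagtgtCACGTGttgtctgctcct
Ctsa, position -12, chr2:164833749-164833778, + strand: tgagcaaactgTCACGTGAtgcagatgctc
Ctsa, position 6, chr2:164833766-164833795, + strand: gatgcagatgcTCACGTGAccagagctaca
Mcoln1, position -45, chr8:3500462-3500491, + strand: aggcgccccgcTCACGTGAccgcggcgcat
Atp6v0d1, position -3, chr8:105566050-105566079, - strand: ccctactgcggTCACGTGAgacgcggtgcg
Lamp1, position -45, chr8:13159104-13159133, + strand: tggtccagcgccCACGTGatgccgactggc
The Lgmn element lies before the downstream one of its annotated starts. Glb1, Naglu, Gaa, Sgsh, Ctsl and Ctsf also held CACGTG in a window, and Lamp1 held it at 4 positions between -61 and -15.

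The first comparison, Atg7-KO against cont., addressed what loss of autophagy in hepatocytes does to lysosomal gene expression in the liver. A gene was called when its adjusted p in edgeR's quasi-likelihood test was under 0.05 and its fold change above 1.5. In Atg7-KO, 14 of the 44 genes rose and 3 fell. Those that rose were Cd63, the proteases Ctss, Ctsz, Ctsb, Ctsd and Lgmn, the glycosidases and sulfatases Galns, Gla, Hexa and Gusb, and the lipid-handling Npc2, Asah1, Ppt1 and Lipa. Lamp2, Neu1 and Arsa fell. The share called higher was 31.8%, beside 19.9% of all genes tested, and the share called lower was 6.8%, beside 18.1%. This split depends on how libraries are scaled. With totals in place of TMM factors 27 were called higher and 0 lower, where 38.3% and 7.15% of all genes were. With totals that leave out the 20 most counted genes these were 21 and 0, where 33.7% and 8.72% of all genes were. The median log2 fold change of the 44 was 0.17, and that of all genes tested was -0.03. The median of the 44 was 0.07 without cont. replicate 1, 0.26 without cont. replicate 3 and 0.11 without Atg7-KO replicate 3. Log2 fold changes of the 44 ran from -1.41 to 4.26, with 29 above and 15 below 0, beside 5412 and 5787 of all 11199 genes tested. All 3 Atg7-KO libraries were above all 3 cont. libraries for 15 of the 44 genes (34.1%, beside 26.7% of all genes tested), and below them for 5 (11.4%, beside 24.9%). The summed level of the 44 was 3198, 4028 and 4312 CPM in cont. livers, 5276, 5673 and 5882 in Atg7-KO livers and 5096, 5245 and 4500.4 in S351A livers. Each library of both Atg7-deficient groups was above each cont. library in this sum. The sum of the 12 proteases ran from 1247 to 1862 CPM in cont. livers, 2739.5 to 3204 in Atg7-KO livers and 2365 to 2632 in S351A livers, and that of the 7 lipid-handling genes from 532 to 704, 1076 to 1136 and 801 to 1163 CPM. The sum of the 9 membrane and acidification genes overlapped between groups, at 964 to 1254, 959 to 1038 and 882 to 1025 CPM, as did that of the 13 glycosidases and sulfatases, at 375 to 469, 435 to 455 and 401 to 443 CPM.

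**Figure D1:**
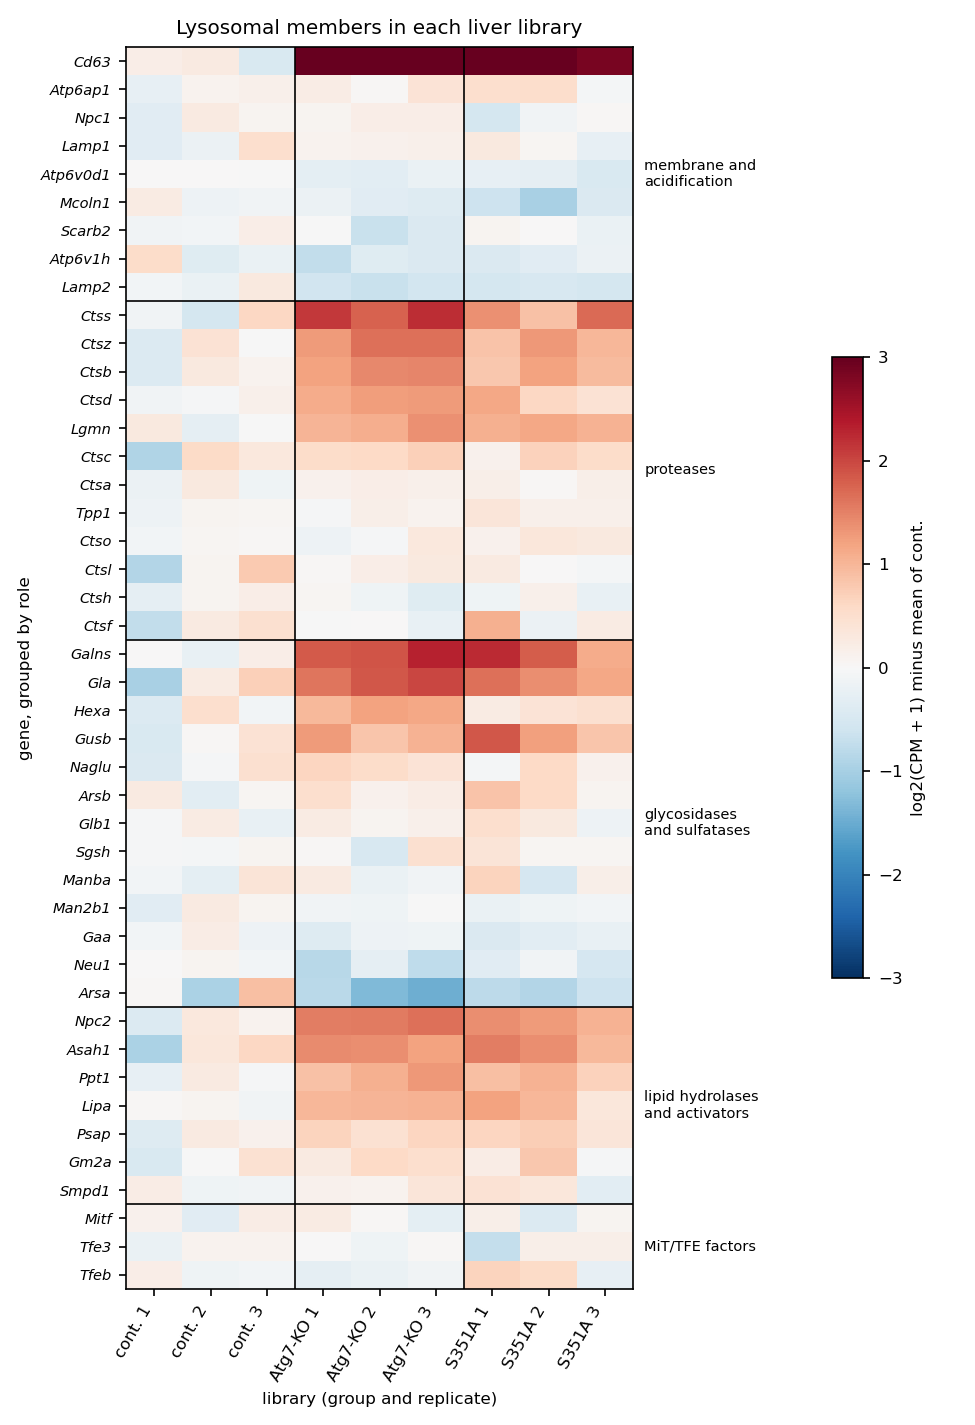
Heat map of the 44 lysosomal genes (rows, grouped by role) in the 9 libraries (columns). Colour is log2(CPM + 1) minus the mean of the 3 cont. libraries, and differences beyond 3 are drawn at the end colours. The 14 genes called higher in Atg7-KO lie above the cont. mean in all 6 Atg7-deficient libraries, Hexa only by little in S351A. The membrane and acidification genes other than Cd63 and the 3 MiT/TFE factors are mostly pale or blue. Among these, Tfeb lies above the cont. mean in some S351A libraries.

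Among the 9 genes of the membrane and its acidification, 1 rose and 1 fell in Atg7-KO (11.1% each, beside 19.9% and 18.1% of all genes tested). Cd63 encodes a tetraspanin of late endosomes and lysosomes (chromosome 10, 128900989 to 128912822, + strand). Its levels were 6.95, 7.34 and 4.00 CPM in cont. livers, 102, 95.9 and 127 in Atg7-KO livers and 116, 59.2 and 49 in S351A livers. Every Atg7-deficient library was above every cont. library, and S351A replicate 1 was about as high as the Atg7-KO libraries while the other two were lower. Cd63 rose by a log2 fold change of 4.26 (SE 0.36, edgeR's adjusted p 6.23e-06) in Atg7-KO, or 19.2-fold, the largest among the 44. In S351A it was 3.73 (SE 0.37, edgeR's adjusted p 3.79e-05), or 13.3-fold. Per kb of exon, Cd63 went from position 40 of 44 in cont. (1.66 CPM per kb) to 29.4 CPM per kb in Atg7-KO, a level above that of Lipa in cont. (24.8 CPM per kb). Exon length here merges the exons of all annotated transcripts of a gene, so the order of genes depends partly on the annotation.

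Lamp1 and Lamp2 encode abundant glycoproteins that line the inner face of the lysosomal membrane. Lamp1 (chromosome 8, 13159161 to 13175338, + strand) was measured at 186, 209.8 and 335 CPM in cont. livers, 252, 257 and 259.9 in Atg7-KO livers and 291, 245 and 199.7 in S351A livers. The groups overlapped, and its log2 fold changes were 0.07 (edgeR's adjusted p 0.857) in Atg7-KO and 0.01 (edgeR's adjusted p 0.986) in S351A. With libraries scaled by totals it was called higher in Atg7-KO, at 0.62. Of its exon bases, 9.31% are shared with Grtp1 on the other strand. Lamp2 (chromosome X, 38401357 to 38456454, - strand) was measured at 428, 393 and 559 CPM in cont. livers, 305, 284 and 308 in Atg7-KO livers and 315, 328 and 316 in S351A livers. All 6 Atg7-deficient libraries lay below all cont. libraries, with a log2 fold change of -0.62 (SE 0.21, edgeR's adjusted p 0.032) in Atg7-KO, which was called, and -0.53 (SE 0.21, edgeR's adjusted p 0.0781) in S351A, which was not. The 1.54-fold decrease in Atg7-KO is just past the 1.5-fold limit, and the call was lost in 12 of 22 alternative analyses. Over all 22 the log2 fold change was between -0.73 and -0.08.

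The remaining membrane genes were not called in either comparison with cont. Scaling by totals called Npc1 and Atp6ap1 higher in Atg7-KO and Atp6ap1 higher in S351A, and Atp6v1h was called lower in Atg7-KO (log2 fold change -0.73) without cont. replicate 2. The genes encode the carrier of glucocerebrosidase (Scarb2), the cholesterol exporter Npc1, the cation channel Mcoln1, the V-ATPase subunits Atp6v0d1 and Atp6v1h and the accessory subunit Atp6ap1. Atp6v0d1 was nearly the same in the cont. libraries, at 58.1, 58 and 57.5 CPM, and below that in all 3 Atg7-KO libraries (47.2, 46.3 and 50.4 CPM) and all 3 S351A libraries (49, 48.1 and 41.7 CPM). Its log2 fold change in Atg7-KO was -0.27 (edgeR's adjusted p 0.213). Mcoln1 was lowest in S351A, at 16, 12.3 and 18.4 CPM against 30.3, 22.7 and 23.3 CPM in cont., with a log2 fold change of -0.69 (edgeR's adjusted p 0.0582) that missed the threshold, and was called lower there after thinning to the smallest library and without S351A replicate 3.

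Of the 12 proteases, 5 rose in Atg7-KO and none fell, and the same 5 genes were called higher in S351A (41.7%, beside 19.9% of all genes tested in Atg7-KO and 15.6% in S351A). Cathepsin B, encoded by Ctsb (chromosome 14, 63122462 to 63145923, + strand), is a cysteine protease. Its levels were 295, 482 and 422 CPM in cont. livers, 901, 1060.0 and 1079.9 in Atg7-KO livers and 686, 899 and 762 in S351A livers. The 3 groups did not overlap with one another, with S351A between the others. The log2 fold change was 1.34 (SE 0.25, edgeR's adjusted p 0.00115) in Atg7-KO and 0.97 (SE 0.25, edgeR's adjusted p 0.0115) in S351A. Fdft1 on the other strand shares 12.8% of its exon bases, and the strand setting of the counting was not stated.

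Ctsz (chromosome 2, 174427493 to 174439039, - strand) encodes a carboxypeptidase of the cathepsin family. Per kb of merged annotated exon it had the highest level among the 44 in all groups. This was 161 CPM per kb in cont. livers, 456 in Atg7-KO livers and 328 in S351A livers. Its libraries were at 171, 304 and 223 CPM in cont. livers, 553, 710.0 and 709 in Atg7-KO livers and 412, 555 and 453 in S351A livers. Both Atg7-deficient groups were above cont. without overlap, by a log2 fold change of 1.5 (SE 0.26, edgeR's adjusted p 7.80e-04) in Atg7-KO and 1.02 (SE 0.26, edgeR's adjusted p 0.0108) in S351A. Ctsd (chromosome 7, 142375911 to 142388038, - strand) encodes the main aspartic protease of lysosomes and was present at 158, 164 and 187 CPM in cont. livers, 366, 404 and 410.3 in Atg7-KO livers and 382, 260.1 and 229 in S351A livers. Its 3 cont. libraries were close together, and S351A replicate 1 was at the Atg7-KO level while replicates 2 and 3 lay between the groups. On the log2 scale Ctsd changed by 1.21 (SE 0.23, edgeR's adjusted p 0.00144) in Atg7-KO and 0.78 (SE 0.23, edgeR's adjusted p 0.025) in S351A. The call in S351A was lost in 7 of 22 alternative analyses, with a log2 fold change of 0.52 (edgeR's adjusted p 0.137) without S351A replicate 1. Gm49369, annotated on the same strand, shares 34.4% of the exon bases of Ctsd, so reads could have been divided between them.

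Ctss (chromosome 3, 95526786 to 95556403, + strand) encodes cathepsin S, which macrophages and other antigen-presenting cells use to process the MHC class II invariant chain. Its levels were 8.84, 6.29 and 15.2 CPM in cont. livers, 44.7, 34.9 and 48.2 in Atg7-KO livers and 26.2, 18.5 and 33.1 in S351A livers. The 3 groups were apart from one another, with cont. lowest and Atg7-KO highest. The log2 fold change was 1.96 (SE 0.30, edgeR's adjusted p 3.87e-04) in Atg7-KO, the largest among the proteases, and 1.25 (SE 0.35, edgeR's adjusted p 0.0178) in S351A, on 15 to 27 counts per S351A library. Lgmn (chromosome 12, 102394084 to 102439813, - strand) encodes legumain, an asparaginyl endopeptidase that processes other cathepsins, and was at 31.6, 21 and 25.3 CPM in cont. livers, 52.7, 56 and 68.2 in Atg7-KO livers and 54.8, 57.9 and 53.9 in S351A livers. Both Atg7-deficient groups were at about the same level, with log2 fold changes of 1.2 (SE 0.20, edgeR's adjusted p 6.12e-04) in Atg7-KO and 1.11 (SE 0.21, edgeR's adjusted p 0.00242) in S351A.

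The remaining proteases were Ctsa, a carboxypeptidase that also protects Neu1 and the product of Glb1, the cysteine cathepsins Ctsc, Ctsf, Ctsh, Ctsl and Ctso, and the tripeptidyl peptidase Tpp1. Changes in Atg7-KO, as log2 fold changes, ran from -0.28 for Ctsf to 0.48 for Ctsc, and none was called in any comparison. Scaling by totals called Ctsa, Ctsc, Ctso and Tpp1 higher in Atg7-KO, at 0.68, 1.03, 0.59 and 0.61, and Ctsa, Ctso and Tpp1 higher in S351A. Cont. replicate 1 was the lowest cont. library for Ctsc (25.3 CPM against 72.4 and 60.3) and Ctsl (131 CPM against 255 and 415). The cont. libraries of Ctsl spanned all Atg7-KO values. Ctsa, Tpp1 and Ctso varied little, with 95% intervals in Atg7-KO of -0.29 to 0.59, -0.33 to 0.47 and -0.36 to 0.45.

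Of the 13 glycosidases and sulfatases, Atg7-KO had 4 called higher (30.8%, beside 19.9% of all genes tested) and 2 lower (15.4%, near the 18.1% of all genes). Galns (chromosome 8, 122578242 to 122611463, - strand) encodes the sulfatase that removes sulfate from keratan sulfate and chondroitin sulfate. It was at 6.31, 5.24 and 7.29 CPM in cont. livers, 24.9, 25.7 and 35 in Atg7-KO livers and 33.1, 24.7 and 14.7 in S351A livers. All Atg7-deficient libraries were above all cont. libraries, and the S351A libraries were more spread than those of Atg7-KO. Galns changed by 2.12 (SE 0.29, edgeR's adjusted p 1.55e-04) on the log2 scale in Atg7-KO and 1.9 (SE 0.32, edgeR's adjusted p 0.00123) in S351A.

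Gla (chromosome X, 134588149 to 134601125, - strand) encodes alpha-galactosidase A, which cleaves the globotriaosylceramide stored in Fabry disease. Its transcript was the least abundant of the 44 in cont. per kb of exon. The libraries were at 0.631, 2.80 and 4.27 CPM in cont. livers, 8.75, 10.7 and 11.8 in Atg7-KO livers and 9.13, 7.40 and 6.13 in S351A livers, on 1 to 48 counts in cont. and 5 to 8 counts in S351A. All Atg7-deficient libraries were above cont., with a log2 fold change of 1.71 (SE 0.41, edgeR's adjusted p 0.00552) in Atg7-KO, and one of 1.27 (SE 0.50, edgeR's adjusted p 0.0762) in S351A that missed the threshold at these counts. Gusb (chromosome 5, 129989011 to 130003049, - strand), the gene of beta-glucuronidase, was at 6.95, 10.1 and 13.7 CPM in cont. livers, 25.3, 18.5 and 21.4 in Atg7-KO livers and 38.8, 24.7 and 18.4 in S351A livers. It was the only one of the 14 with a higher mean in S351A than in Atg7-KO. The change was 1.00 (SE 0.29, edgeR's adjusted p 0.018) in Atg7-KO and 1.32 (SE 0.33, edgeR's adjusted p 0.00983) in S351A. The call in Atg7-KO was lost after thinning all libraries to the depth of the smallest, at a log2 fold change of 1.24. It was also lost without Atg7-KO replicate 1, at 0.87 (edgeR's adjusted p 0.0860), and with a limit of 2-fold.

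Hexa (chromosome 9, 59539540 to 59565109, + strand) encodes the alpha subunit of beta-hexosaminidase A, the enzyme lacking in Tay-Sachs disease. Its levels were 23.4, 45.1 and 29.5 CPM in cont. livers, 63.1, 73.8 and 71.8 in Atg7-KO livers and 37.6, 41.9 and 44.1 in S351A livers. Atg7-KO was above the other groups in every library, while S351A lay within the range of cont. Hexa changed by 1.08 (SE 0.23, edgeR's adjusted p 0.00268) on the log2 scale in Atg7-KO and 0.32 (SE 0.25, edgeR's adjusted p 0.355) in S351A. Scaling by totals called Hexa higher in S351A too, at 0.81, as did totals without the 20 most counted genes, at 0.72. Between S351A and Atg7-KO its log2 fold change was -0.75 (SE 0.24, edgeR's adjusted p 0.627), with an unadjusted p of 0.00907, the smallest of the 44 in that comparison. Tmem202 on the other strand shares 12.8% of the exon bases of Hexa.

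Arsa and Neu1 were lower. Arsa (chromosome 15, 89472476 to 89477425, - strand) encodes arylsulfatase A, which degrades sulfatide, and was at 45.5, 22.4 and 83.6 CPM in cont. livers, 24.9, 17.1 and 15.4 in Atg7-KO livers and 25.1, 23.4 and 28.2 in S351A livers. Its cont. libraries were far apart, and cont. replicate 2 was below Atg7-KO replicate 1, so the groups overlapped. The log2 fold change was -1.41 (SE 0.38, edgeR's adjusted p 0.0113) in Atg7-KO and -1.02 (SE 0.42, edgeR's adjusted p 0.0893) in S351A, and 18.8% of its exon bases are shared with an antisense RNA gene. The call in Atg7-KO was lost without cont. replicate 3, where the log2 fold change was -0.76, and in 3 other alternative analyses. In S351A Arsa was called lower without cont. replicate 2, at -1.39, and without a filter, at -1.13. Neu1 (chromosome 17, 34931253 to 34935953, + strand) encodes the lysosomal sialidase, and was at 65.7, 68.5 and 60.9 CPM in cont. livers, 36.2, 53.8 and 37.7 in Atg7-KO livers and 51.3, 60.4 and 45.3 in S351A livers. Both Atg7-deficient groups were below cont. without overlap, by log2 fold changes of -0.61 (SE 0.20, edgeR's adjusted p 0.0308) in Atg7-KO and -0.31 (SE 0.21, edgeR's adjusted p 0.303) in S351A. The 1.53-fold decrease in Atg7-KO is just past the limit, and 9 of 22 alternative analyses did not call it.

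The 7 other genes of this group were Gaa, which degrades glycogen, the beta-galactosidase gene Glb1, the mannosidases Manba and Man2b1, and Naglu, Sgsh and Arsb, whose products degrade glycosaminoglycans. None was called in any comparison, and in Atg7-KO the log2 values lay between -0.23 for Gaa and 0.45 for Naglu. Naglu was called higher in Atg7-KO without cont. replicate 3 (log2 fold change 0.78) and under both scalings by totals, Arsb was called higher in both groups under both of these, and Glb1 in Atg7-KO under the first of them. Gaa was below cont. in all S351A libraries, at 61.6, 66.6 and 71.1 CPM against 79.6, 98.2 and 74.9 CPM, and its log2 fold change there was -0.34 (edgeR's adjusted p 0.21). Sgsh rested on 5 to 7 counts per S351A library, and its 95% interval there ran from -0.71 to 1.09.

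Of the 7 lipid hydrolases and lipid-binding or activator proteins, 4 rose in Atg7-KO, and the same 4 genes were called higher in S351A (57.1%, beside 19.9% and 15.6% of all genes tested). None of the 7 had a log2 fold change below 0 in Atg7-KO or S351A, where 5787 and 5760 of all 11199 genes tested did. Npc2 (chromosome 12, 84754562 to 84773152, - strand) encodes the soluble protein that hands cholesterol to NPC1. It was at 23.4, 39.2 and 33.6 CPM in cont. livers, 93.3, 93.7 and 101 in Atg7-KO livers and 84.4, 77.7 and 66.2 in S351A livers. The 3 groups did not overlap, with S351A between cont. and Atg7-KO. Npc2 changed by 1.56 (SE 0.21, edgeR's adjusted p 1.47e-04) on the log2 scale in Atg7-KO and 1.23 (SE 0.22, edgeR's adjusted p 0.00169) in S351A. Its partner Npc1 differed little in level, with a log2 fold change of 0.14 (edgeR's adjusted p 0.657) in Atg7-KO and -0.21 (edgeR's adjusted p 0.511) in S351A.

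Asah1 (chromosome 8, 41340197 to 41374773, - strand), the acid ceramidase gene, was at 6.95, 18.5 and 22.5 CPM in cont. livers, 40.3, 39.2 and 34.5 in Atg7-KO livers and 43.3, 39.5 and 29.4 in S351A livers. Cont. replicate 1 was low, with 11 counts, and every Atg7-deficient library was above every cont. library. On the log2 scale Asah1 changed by 1.15 (SE 0.30, edgeR's adjusted p 0.0097) in Atg7-KO and 1.12 (SE 0.33, edgeR's adjusted p 0.0234) in S351A. Lipa (chromosome 19, 34492318 to 34527474, - strand) encodes lysosomal acid lipase, which hydrolyses cholesteryl esters and triglycerides. Its levels were 172, 177 and 155 CPM in cont. livers, 335, 339.7 and 348 in Atg7-KO livers and 388, 335 and 213 in S351A livers. The Atg7-KO libraries were close together above all of cont., and S351A replicate 3 was lower than the others. The log2 fold changes were 1.02 (SE 0.24, edgeR's adjusted p 0.00469) in Atg7-KO and 0.89 (SE 0.24, edgeR's adjusted p 0.0143) in S351A.

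Ppt1 (chromosome 4, 122836242 to 122859175, + strand) encodes palmitoyl-protein thioesterase, which removes fatty acids from proteins. Its libraries were at 17, 24.8 and 19.7 CPM in cont. livers, 38, 43.8 and 51.3 in Atg7-KO livers and 38.8, 43.2 and 33.1 in S351A livers. Both Atg7-deficient groups were above cont. and overlapped with each other, with log2 fold changes of 1.1 (SE 0.21, edgeR's adjusted p 0.00144) in Atg7-KO and 0.89 (SE 0.23, edgeR's adjusted p 0.0121) in S351A. Psap, the precursor of the saposins that activate sphingolipid hydrolases, was above cont. in all 6 Atg7-deficient libraries, at 176, 280.4 and 253 CPM in cont. livers, 371, 321 and 366 in Atg7-KO livers and 364, 387 and 300.2 in S351A livers, and narrowly missed the threshold in both groups. Its log2 fold changes were 0.57 (edgeR's adjusted p 0.0642) in Atg7-KO and 0.56 (edgeR's adjusted p 0.0843) in S351A, and 6 of 22 alternative analyses called it in Atg7-KO. Smpd1, which encodes acid sphingomyelinase, and Gm2a, the activator protein for beta-hexosaminidase A, were not called, with log2 fold changes of 0.21 and 0.41 in Atg7-KO, though scaling by totals called both higher in both groups.

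**Figure D2:**
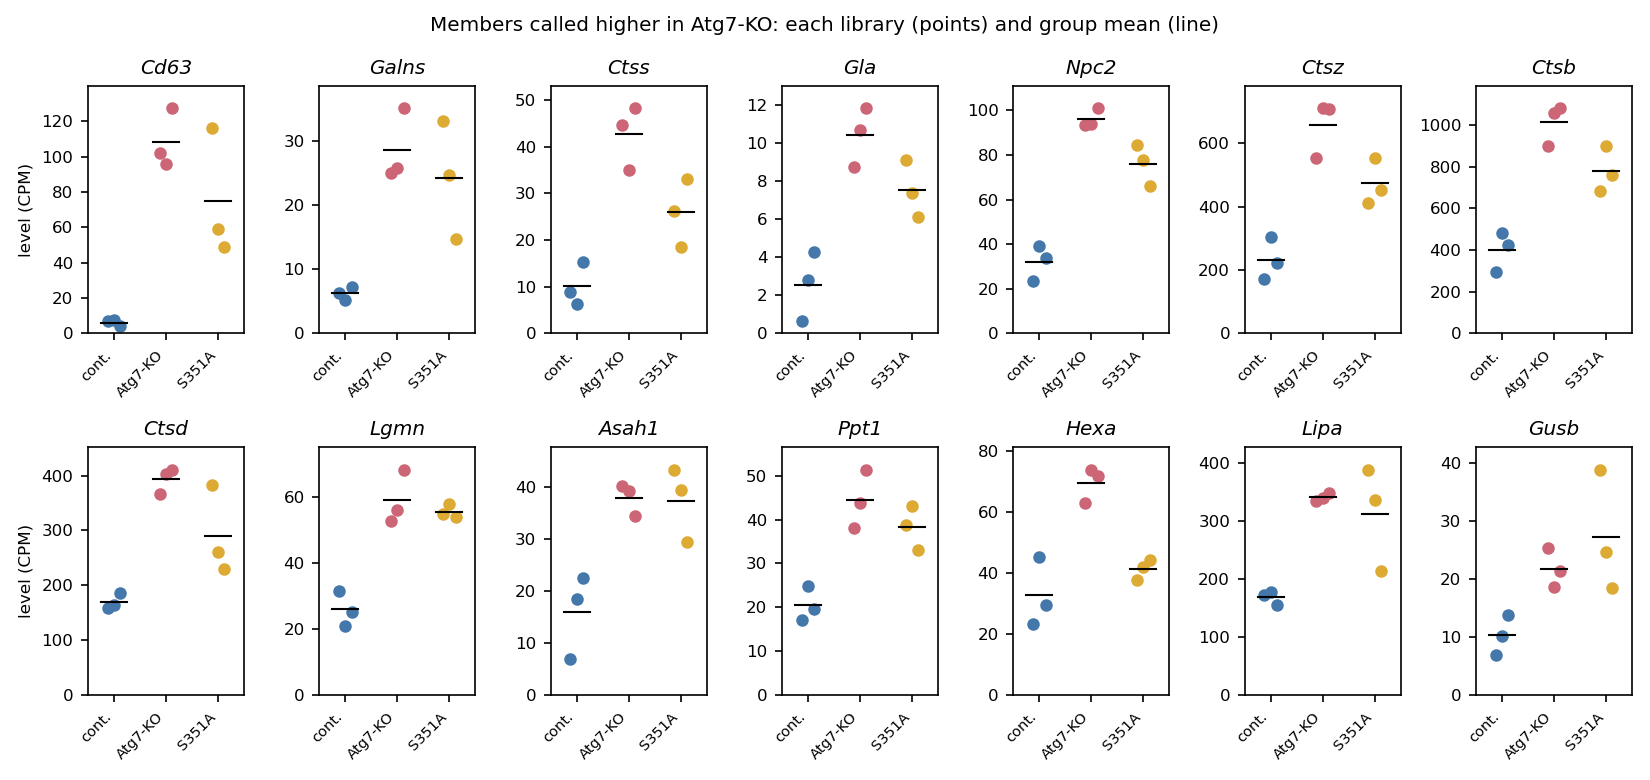
Levels (CPM, axes from 0) of the 14 lysosomal genes called higher in Atg7-KO, in each library of cont., Atg7-KO and S351A (points), with the group mean (line). The genes were picked for this call, the 3 Atg7-KO libraries lie above the 3 cont. libraries in all 14 panels, and 12 of the genes were also called higher in S351A.

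The genes of the MiT/TFE factors themselves were not called in any comparison, except that Tfeb was called higher in S351A against cont. when libraries were scaled by totals (log2 fold change 0.90) or by totals without the 20 most counted genes (0.81). Tfeb (chromosome 17, 47737030 to 47792419, + strand) was measured at 18.9, 14.7 and 15.4 CPM in cont. livers, 13.4, 13.9 and 15 in Atg7-KO livers and 26.2, 24.7 and 13.5 in S351A livers. Its groups overlapped, and its log2 fold changes were -0.2 (SE 0.25, edgeR's adjusted p 0.569) in Atg7-KO and 0.42 (SE 0.28, edgeR's adjusted p 0.281) in S351A. Between S351A and Atg7-KO the log2 fold change was 0.62 (SE 0.28, edgeR's adjusted p 0.754), with an unadjusted p of 0.0474. Tfe3 (chromosome X, 7762560 to 7775202, + strand) was measured at 23.4, 29 and 29 CPM in cont. livers, 27.2, 24.6 and 27.7 in Atg7-KO livers and 16, 30.8 and 30.6 in S351A livers. The 9 libraries of Tfe3 were within one range apart from S351A replicate 1, which was low, and the log2 fold changes were -0.05 (edgeR's adjusted p 0.889) in Atg7-KO and -0.09 (edgeR's adjusted p 0.818) in S351A. Mitf (chromosome 6, 97807052 to 98021349, + strand) was low, at 7.58, 5.24 and 8.18 CPM in cont. livers, 8.29, 7.13 and 5.45 in Atg7-KO livers and 7.98, 4.93 and 7.35 in S351A livers, with log2 fold changes of -0.01 (edgeR's adjusted p 0.989) and -0.07 (edgeR's adjusted p 0.92). The 95% intervals in Atg7-KO were -0.74 to 0.35 for Tfeb, -0.54 to 0.44 for Tfe3 and -0.70 to 0.68 for Mitf. The localisation and phosphorylation of these proteins, by which they are mainly controlled, were not measured here.

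**Figure D3:**
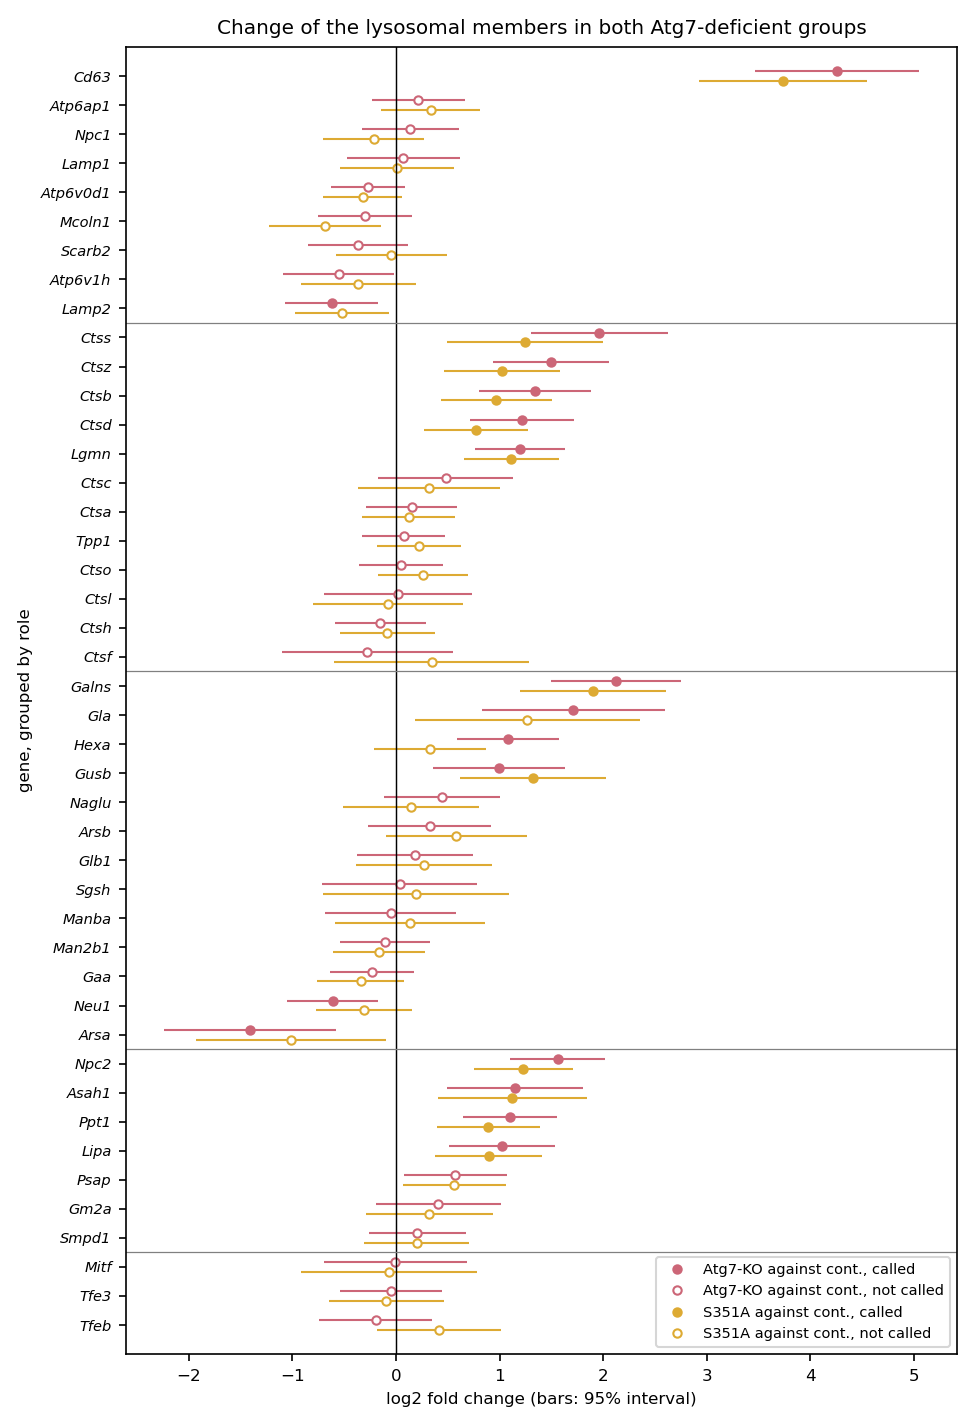
Log2 fold changes of the 44 lysosomal genes against cont. in Atg7-KO (red) and S351A (yellow), grouped by role. Points are the fitted values, filled where called, and bars are 95% intervals. Cd63 stands far to the right at 4.26 and 3.73, and the 3 genes called lower in Atg7-KO (Lamp2, Neu1 and Arsa) have open points in S351A.

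Of the 11 genes that rose in Atg7-KO and have a promoter window, 3 (Ctsd, Gla and Lgmn) held an E-box (27.3%, beside 36.8% of the 38 genes with a window and 11.9% of all tested genes with one). Of the 14 genes with CACGTG in a window these 3 were called higher (21.4%, beside 19.9% of all genes tested) and 1 (Arsa) was called lower. Of the 24 genes with windows but without CACGTG, 8 were called higher (33.3%) and 2 lower, and the difference between the shares was not tested. The median log2 fold change in Atg7-KO was 0.05 with and 0.27 without CACGTG, and that in S351A was 0.13 and 0.32. Of the 5 genes with TCACGTGA, Ctsd and Gla rose, whereas Ctsa, Mcoln1 and Atp6v0d1 were not called. These shares are descriptions of a window of 300 bases, and Ctsb, Galns and Asah1, which rose, were among the 6 genes without a window.

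The second comparison asked how the same genes stood in livers that lacked Atg7 and carried p62 S351A. Against cont., 12 of the 44 genes were called higher in S351A (27.3%, beside 15.6% of all genes tested) and 0 were called lower by edgeR, beside 13% of all genes tested. At an unadjusted p under 0.05 there were 3 lower (6.82%, beside 19.9% of all genes tested), and DESeq2 and limma-voom also called 0 lower, beside 12.4% and 10.7% of all genes. All 12 were among the 14 that rose in Atg7-KO, and the 2 that were not called were Gla and Hexa. Scaling by totals called both of these higher in S351A, at log2 fold changes of 1.80 and 0.81, where 31.2% of all genes were. Without the 20 most counted genes in the totals they were called at 1.68 and 0.72, where 27.1% of all genes were. Gla was also called without cont. replicate 3, at 1.90. Both Atg7-deficient groups were compared with the same cont. libraries, so the overlap is not independent support. The median log2 fold change of the 44 was 0.26, or 0.13 without cont. replicate 1, and that of all genes tested -0.03. All S351A libraries were above all cont. libraries for 16 of the 44 genes (36.4%, beside 19.6% of all genes tested) and below them for 5 (11.4%, beside 18.4%). Leaving out S351A replicate 1 kept 7 of the 12 calls and leaving out S351A replicate 2 kept 6, and the share of all genes called higher also fell, from 15.6% to 10.3% and 10.9%. Those of Ctsd, Asah1 and Lipa were lost without either of these libraries, those of Ctss and Gusb without replicate 1, and those of Ctsb, Ctsz and Ppt1 without replicate 2. In these fits the log2 fold changes of the lost calls ran from 0.52 (Ctsd without replicate 1) to 1.23 (Ctss without replicate 1). Ctss was also lost without S351A replicate 3, and Ctsd without cont. replicate 1 or 2, while Cd63, Galns, Npc2 and Lgmn were called in all 22 alternative analyses.

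S351A was then compared with Atg7-KO directly, which addressed whether weaker binding of p62 to KEAP1 changed the lysosomal genes in liver without Atg7. None of the 44 genes was called by edgeR, DESeq2 or limma-voom. Over all genes tested, edgeR called 0% higher and 0.00893% lower. At an unadjusted p under 0.05 there were 3 of the 44 genes (6.82%, beside 6.6% of all genes tested), namely Hexa and Ctss with lower and Tfeb with higher levels in S351A. The groups did not overlap for 7 of the 44 (15.9%, beside 16.9%), with Npc1, Mcoln1, Ctsb, Ctss, Hexa and Npc2 lower and Lamp2 higher in S351A. The median log2 fold change was -0.06, beside 0.01 for all genes tested. Leaving out 1 library moved it to -0.04 without Atg7-KO replicate 3 and to 0.04 without S351A replicate 3. Of the 14 genes that rose in Atg7-KO, 13 were below 0 in log2 fold change between S351A and Atg7-KO, as were 1525 of all 2226 genes called higher in Atg7-KO (68.5%). The 14 were picked for a high level in Atg7-KO, so this count is a description and no test of p62 S351A.

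The size of these differences was bounded only loosely. Between S351A and Atg7-KO, the log2 fold change was -0.53 (95% interval -1.20 to 0.14) for Cd63, -0.71 (95% interval -1.42 to -0.01) for Ctss, -0.37 (95% interval -0.90 to 0.16) for Ctsb, -0.47 (95% interval -1.03 to 0.08) for Ctsz and -0.44 (95% interval -0.94 to 0.06) for Ctsd. For Asah1 it was -0.02 (95% interval -0.72 to 0.67) and for Lgmn -0.08 (95% interval -0.53 to 0.36). Over the 44 genes the half-width of the interval had a median of 0.55 and ran from 0.39 to 1.00, and for 10 genes the interval reached past a fold change of 2 in one direction. Equal levels in both Atg7-deficient groups are therefore not shown for any of them.

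**Figure D4:**
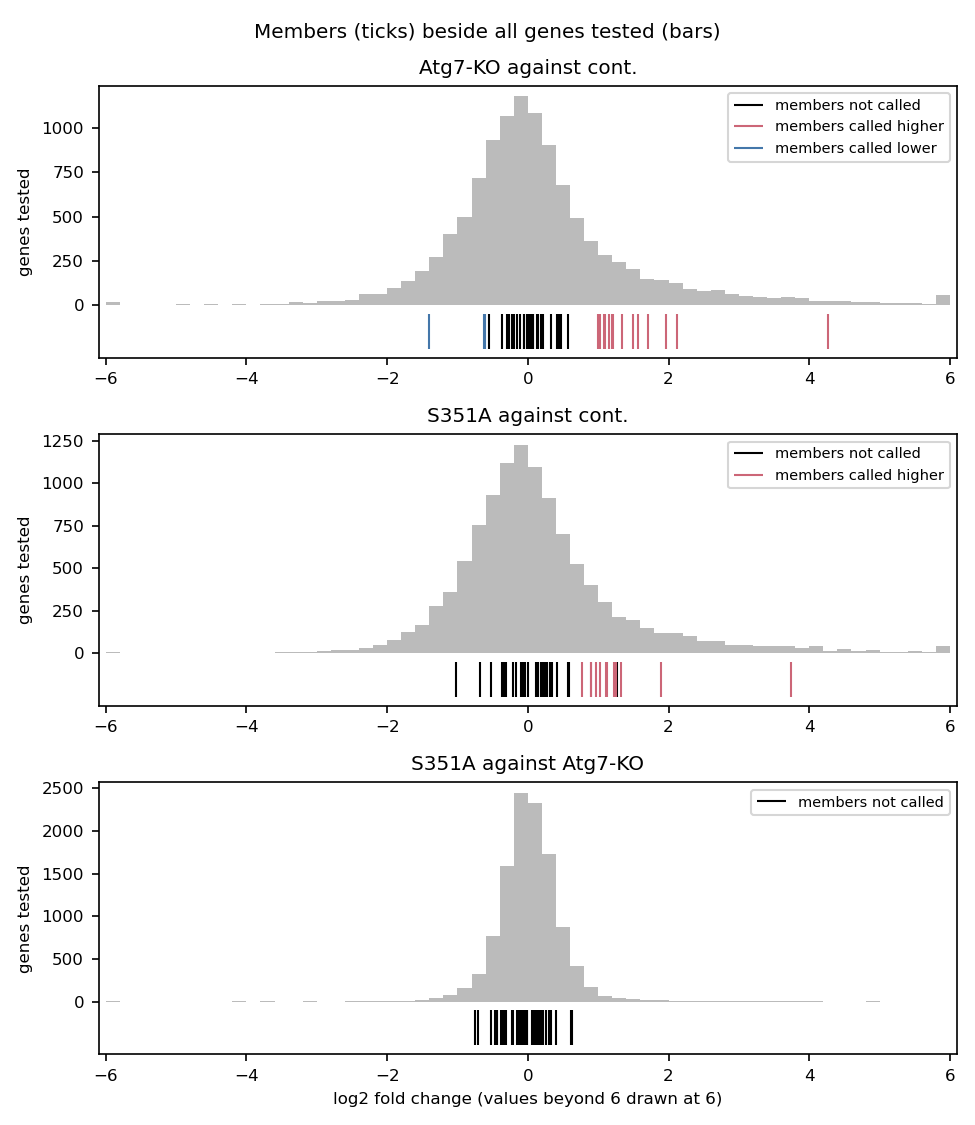
Log2 fold changes of all 11199 genes tested (grey bars) and of the 44 lysosomal genes (ticks, coloured where called) in the 3 comparisons. In both comparisons with cont. the called members lie to the right apart from the 3 lower ones in Atg7-KO, and in S351A against Atg7-KO all ticks lie between -0.75 and 0.62.

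The genes also varied among livers of 1 group. The coefficient of variation between replicates had a median over the 44 of 20.9% among cont. livers, 9.7% among Atg7-KO livers and 18.9% among S351A livers, with the highest values at 71.3% for Gla in cont., 38.2% for Sgsh in Atg7-KO and 49.9% for Ctsf in S351A. Cont. replicate 1 was the lowest cont. library for 25 of the 44 genes and for 9 of the 14 that rose. S351A replicate 3 was the lowest of its group for 25 of the 44 and for 10 of the 14, and S351A replicate 1 was the highest for 8 of the 14. S351A replicate 1 also had the highest summed level of 7 ductular markers in its group, at 1266 CPM against 780.4 and 827 CPM, and the part of this in the lysosomal values was not tested.

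Further genes of the pathway, outside the 44, were counted in the same fit. Of 14 other V-ATPase subunits tested, 2 rose in Atg7-KO (14.3%, beside 19.9% of all genes tested) and none fell. The genes that rose were Atp6v1a, the catalytic subunit, with a log2 fold change of 0.74 (edgeR's adjusted p 0.0066), and the membrane subunit gene Atp6v0e, with 0.76 (edgeR's adjusted p 0.0208). In S351A edgeR called none of the 14, beside 15.6% of all genes called higher and 13% lower, and 5 had an unadjusted p under 0.05 (35.7%, beside 41% of all genes), 3 of them higher and 2 lower. Of 26 other lysosomal hydrolases, 6 rose (23.1%, near the 19.9% of all genes) and 1 fell (3.85%, beside 18.1%). The largest changes were in the ribonuclease genes Rnaset2b and Rnaset2a, near-identical copies on chromosome 17 between which reads can be shared, with log2 fold changes of 4.65 (edgeR's adjusted p 1.45e-04) and 2.89 (edgeR's adjusted p 2.09e-04). Naaa, an amidase of lipid amides, followed with 1.1 (edgeR's adjusted p 0.0464), and Hyal1, a hyaluronidase, fell, with a log2 fold change of -1.78 (edgeR's adjusted p 3.19e-04).

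Of 27 other lysosomal membrane proteins, 6 rose and 5 fell in Atg7-KO, which are 22.2% and 18.5% and near the 19.9% and 18.1% of all genes tested. The 3 with the largest rise were Laptm5, at 12.1 ± 4.09 CPM in cont. livers, 69.8 ± 13.3 in Atg7-KO livers and 59.5 ± 8.38 in S351A livers, Slc11a1, at 13.3 ± 0.884 CPM in cont. livers, 73.9 ± 6.21 in Atg7-KO livers and 48.5 ± 7.59 in S351A livers, and Cd68, at 9.85 ± 1.19 CPM in cont. livers, 28.1 ± 1.86 in Atg7-KO livers and 24.3 ± 2.73 in S351A livers (SD, n = 3). The rise of Laptm5 was 2.55 (edgeR's adjusted p 2.38e-05) as a log2 fold change, that of Slc11a1 2.47 (edgeR's adjusted p 3.78e-06) and that of Cd68 1.52 (edgeR's adjusted p 1.57e-04). All 3 are best known as genes of macrophages and other blood cells. The 3 with the largest fall were the transporters Slc15a4 and Slc46a3 and the channel Tpcn1, with log2 fold changes of -0.98 (edgeR's adjusted p 0.0449), -0.8 (edgeR's adjusted p 0.0197) and -0.74 (edgeR's adjusted p 0.0203).

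Of 13 genes that serve the delivery of enzymes to lysosomes, 3 rose (23.1%, near the 19.9% of all genes) and none fell. Cln6, an ER protein needed for the export of lysosomal enzymes, was at 1.89, 2.80 and 1.07 CPM in cont. livers, 18.4, 27.8 and 29.1 in Atg7-KO livers and 14.8, 19.7 and 9.80 in S351A livers, so that every Atg7-deficient library was above cont. Its log2 fold change was 3.9 (SE 0.40, edgeR's adjusted p 2.42e-05) in Atg7-KO. Both mannose 6-phosphate receptors rose, M6pr with 0.92 (edgeR's adjusted p 0.00404) and Igf2r with 0.82 (edgeR's adjusted p 0.00583).

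Of 16 tested genes that control TFEB or its targets, all of them parts or regulators of mTORC1 and the Rag complex except Zkscan3 and the calcineurin subunit gene Ppp3cb, 1 rose (6.25%, beside 19.9% of all genes) and 3 fell (18.8%, near the 18.1% of all genes). The one that rose was Rragd (chromosome 4, 32983037 to 33022180, + strand), a Rag GTPase that recruits mTORC1 to lysosomes and is itself a target of MiT/TFE factors. It was at 0, 2.10 and 1.16 CPM in cont. livers, 59.2, 58.8 and 60.4 in Atg7-KO livers and 39.9, 43.2 and 25.7 in S351A livers, with no count in cont. replicate 1. All Atg7-deficient libraries were far above cont., and the Atg7-KO libraries were above those of S351A. The log2 fold change was 5.57 (SE 0.38, edgeR's adjusted p 1.69e-06) in Atg7-KO and 4.85 (SE 0.40, edgeR's adjusted p 1.10e-05) in S351A. Those that fell were Lamtor2 and Lamtor4, subunits of the Ragulator complex that anchors the Rag GTPases, and Zkscan3, a repressor of lysosomal genes, with log2 fold changes of -1.41 (edgeR's adjusted p 3.18e-04), -0.68 (edgeR's adjusted p 0.00993) and -0.97 (edgeR's adjusted p 0.0167). All 4 were called in the same direction in S351A.

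Several enzymes among the 44 are abundant in macrophages, and markers of other liver cells were read beside them. For all genes tested the shares called higher and lower were 19.9% and 18.1% in Atg7-KO and 15.6% and 13% in S351A. Of 16 macrophage markers, 11 were called higher in Atg7-KO (68.8%) and 1 lower (Timd4, a marker of resident Kupffer cells), and in S351A 8 were higher (50%) and none lower. Their summed level ran from 257 to 422 CPM in cont. livers, 552 to 699 in Atg7-KO livers and 438 to 489 in S351A livers, and 2, 1 and 1 of the 16 were at 0 in cont. replicates 1 to 3. The Kupffer cell markers Clec4f, Vsig4 and Cd5l, at 142, 12.5 and 48.2 CPM in cont., were not called in either group. Ccr2 and Trem2, markers of recruited macrophages, rose in Atg7-KO from 2.27 to 20.2 CPM and from 0.825 to 15.5 CPM. Of the ductular markers all 6 tested rose in both groups, from a sum of 74.5 to 124 CPM in cont. livers to one of 862 to 1262 in Atg7-KO livers and 780.4 to 1266 in S351A livers, with 2 at 0 in cont. replicate 1. Of 8 stellate and matrix markers tested, 6 rose in both groups (75%), from a sum of 260.3 to 521 CPM in cont. livers to one of 1235 to 1696 in Atg7-KO livers and 1154 to 1640.3 in S351A livers. Of 9 hepatocyte markers, 7 were lower in both groups (77.8%). Of 6 endothelial markers, 1 was higher (16.7%, near the share of all genes) and 2 lower in Atg7-KO, and all 6 tested proliferation markers rose there. The part of these cells in the lysosomal changes was not tested.

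**Figure D5:**
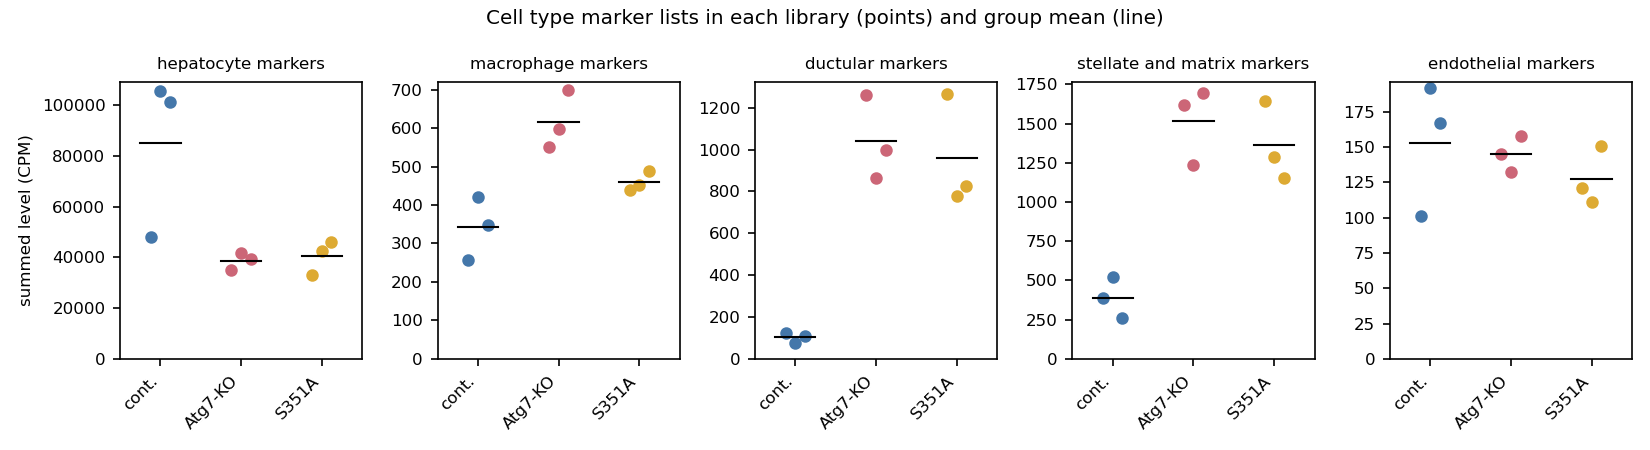
Summed levels (CPM, axes from 0) of 5 lists of cell type markers in each library (points), with group means (lines). Macrophage, ductular, and stellate and matrix sums are higher in all Atg7-deficient libraries than in cont., and cont. replicate 1 has less than either other cont. library in the hepatocyte panel.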

How the data were processed

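Reads were trimmed with Trim Galore, mapped to mm10 with STAR and quantified with RSEM by the authors, according to their processing notes. Versions, annotation and strand setting are not given in the sources used here. The deposited table holds expected counts, the authors' estimates of reads per gene without scaling between libraries, and these were rounded to whole numbers (4.40% to 7.75% of values per library were not whole).

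R 4.3.3 with edgeR 4.0.16 was used on the counts of 9 libraries, 3 per group. Of 24411 genes, 11199 passed filterByExpr (minimum count 10, minimum total 15). TMM factors scaled the libraries, all 9 entered 1 quasi-likelihood model with group as its factor, and p-values were adjusted by Benjamini-Hochberg over all genes tested. A gene was called at an adjusted p under 0.05 and a fold change above 1.5. Standard errors and 95% intervals are those implied by the F statistic. Levels are CPM on the TMM scale. Levels of different genes were compared per kb of exon, merged over all annotated transcripts of GENCODE M21, which also gave positions on mm10. The floor covers counting error only, because PCR copies of a molecule were counted as separate reads. The code of the fit was also run on simulated counts with the same spread for all genes and as many raised as lowered genes. That run does not bear on the choice of scaling or on the spread between these livers.

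The members, lists and naming rule were chosen with earlier results of these data known. The rule gives library values for each member called in at least 1 comparison and for Tfeb, Tfe3, Mitf, Lamp1 and Lamp2, and, for each pathway list, the 3 called genes with the largest change in each direction in Atg7-KO. Other genes, among them Psap, Atp6v0d1, Mcoln1, Ctsc, Ctsl, Gaa and macrophage markers, were named after their values were seen. Hepatocyte marker Tf and membrane protein Vamp7 were not found in the table. The 5 lymphocyte markers were too low to be tested. P-values measure the spread between livers of separate mice. Alternatives were other size factors, filters, limits and tools (DESeq2 1.42.0, limma-voom in limma 3.58.1), the compared libraries alone, replicate or sex as covariates, thinning, and leaving out each library. Sequences come from RefSeq (GRCm38.p6).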

Additional observations from a re-analysis of the deposited data

How the results depend on the processing

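The median change over all genes became 0.51 in Atg7-KO and 0.46 in S351A against cont. (log2) when libraries were scaled by their totals, and 0.40 and 0.36 when the 20 most counted genes were left out of the totals. Scaling by totals gave 27 members higher and 0 lower in Atg7-KO, with a median of 0.71 (38.3% of all genes were called higher), and 23 higher in S351A (31.2% of all genes), with a median of 0.75. Without the 20 most counted genes, 0 were called lower in Atg7-KO, with a median of 0.60, and 20 higher in S351A (27.1% of all genes), with a median of 0.66.

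The 3 members called lower in Atg7-KO became 1 with at least 10 counts in every library (37 members tested, median of members 0.29), 1 with the 6 compared libraries alone, 1 with a limit of 2-fold, and 0 after thinning to the smallest library (40 members tested), where 19.3%, 16.4%, 11.6% and 14.7% of all genes were called lower. In S351A, where none was called lower, 1 was without a filter and 1 after thinning (10.7% and 11.3% of all genes). Leaving out each library in turn gave 1 to 3 members lower in Atg7-KO (12.6% to 18.3% of all genes) and a median of 0.07 to 0.26, and in S351A 6 to 13 higher (10.3% to 16.2% of all genes), 0 to 1 lower (7.51% to 14%) and a median of 0.13 to 0.37, both medians being lowest without cont. replicate 1. Between S351A and Atg7-KO the median was -0.08 to 0.04. The 14 genes higher in Atg7-KO were called again in every alternative that tested them, except Gusb (Gla was not tested with at least 10 counts in every library or after thinning). None of the 44 was called between S351A and Atg7-KO in any of 22 alternatives, and no called value changed sign. Among members not called, the sign changed in at least 1 alternative for 17 in Atg7-KO and 16 in S351A. The causes of these shifts were not tested.

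Deviations of libraries with the same replicate number correlated with r between -0.04 and 0.31, above 0.1 in 5 of 9 pairs. For libraries with different numbers r ran from -0.26 to 0.21. Of the 9 libraries, 4 correlated best with their own number in both other groups, so a link between libraries of the same number is not excluded. The titles number the mice but name no pairs, so the main fit did not take the numbers as pairs. With a replicate block, 14 members were higher and 3 lower in Atg7-KO (median 0.16), where 20.5% and 18% of all genes were. In S351A 12 were higher and 0 lower (median 0.26), where 16.6% and 13.8% of all genes were. Between S351A and Atg7-KO 0 were called (median -0.06), where 0% of all genes were higher and 0.00893% lower.

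S351A libraries held 4 to 729 counts per member. The half-width of the 95% interval had a median of 0.55 between S351A and Atg7-KO and of 0.52 between Atg7-KO and cont., both deeper than S351A, and the part of depth in it was not tested.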
